A study of Homo sapiens with 15 samples.

Results

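The circadian clock genes PER1, PER2, PER3, CRY1, CRY2, NR1D1, NR1D2, DBP, TEF and BHLHE40 were followed in 2 human osteosarcoma cell lines treated with rocaglates, plant-derived inhibitors of the RNA helicase eIF4A. Members were the genes of these names in the count tables of both lines, 10 of 52684 gene IDs that the tables share, and all 10 passed the count filter in every fit. The list was selected on the data themselves: it was chosen because PER3 was lower after treatment in MG-63 and higher in Saos2, so PER3 is described below with no test, and counts of called genes cover the other 9.

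The mammalian clock is a transcriptional loop. CLOCK and BMAL1 (ARNTL) bind E-boxes and drive the PER and CRY genes, whose proteins feed back to repress them, while the nuclear receptors NR1D1 and NR1D2 (REV-ERB alpha and beta) repress ARNTL and the ROR receptors oppose them. DBP and TEF are PAR bZIP activators that bind D-boxes, a site shared with the repressor NFIL3, and BHLHE40 (DEC1) is a repressor that competes for E-boxes. Many cultured cell lines carry this loop too, with each cell keeping its own phase unless the culture is synchronized. Whether MG-63 and Saos2 are rhythmic was not measured here.

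MG-63 and Saos2 cells were grown for 24 h with 0.04% DMSO, with didesmethylrocaglamide (DDR) or with rocaglamide (Roc), which carries a dimethylamide where DDR has an unmethylated amide. The concentrations were 5 nM (DDR) and 25 nM (Roc) for MG-63 and 7 nM (DDR) and 40 nM (Roc) for Saos2, each 1x the growth IC50 of that compound in that line, and they differ between compounds and between lines. The 15 messenger RNA libraries comprised 2 per MG-63 group and 3 per Saos2 group, and the DMSO libraries of a line served both compounds. All cells were harvested at this single time, so a shift in the phase of a rhythm and a change in its mean level cannot be told apart, and neither can fewer expressing cells and less RNA per cell.

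The libraries held 24506297 to 42541127 gene counts. The lines differed in the markers of bone-forming cells. In MG-63, the collagen I genes COL1A1 and COL1A2 stood at 1411 to 1987 and 1011 to 1427 on the counts-per-million scale (CPM), but SP7 and ALPL, both defining for osteoblasts, stayed at or below 0.627 and 0.47 CPM. Saos2 had ALPL at 901 to 1179 CPM and COL1A1 at 613 to 1156 CPM, with COL1A2 at 7.45 to 9.54 CPM. Some bone markers stood at other levels in treated cells. For Saos2, 3 of the 8 listed are given first, chosen after their values were seen. The mean of SP7 was 152 CPM with DMSO, 256 with DDR and 327 with Roc, that of COL1A1 was 627, 723 and 1082, and that of IBSP (bone sialoprotein) was 105, 39.6 and 11.6, with no overlap between the 3 groups for any of these genes. The others went different ways in Saos2, in the same order of groups: SPARC 203, 158 and 151, RUNX2 476.5, 558 and 519.5, ALPL 1080, 1001 and 994, and COL1A2 9.11, 8.45 and 8.66. In MG-63 the means were 5.50, 11.8 and 11.1 for RUNX2 and 1412, 1855 and 1630 for COL1A1. There COL1A2 had 1045, 1196 and 1280, and SPARC 916, 987 and 886.5. The part of these markers in the clock gene values was not tested. BGLAP (osteocalcin) was at or near 0 in both lines. Of 4 markers of other cells that were measured (PTPRC, CD3E, EPCAM and SYP), only EPCAM passed 2 CPM, at 15.6 to 22.9 CPM in the Saos2 libraries, and the sum of the 4 was 17.7 to 24.9 CPM in Saos2 with DMSO, 16.7 to 21.2 with DDR and 17.1 to 18.4 with Roc. In MG-63 that sum was 0.422 to 0.466 with DMSO and at most 0.235 with a compound.

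Promoter windows of all 10 members were read from RefSeq (GRCh38.p14; 250 bases before to 50 after each annotated start, 14 windows), and all 14 were found unchanged in GRCh37, the build of the count tables. They were searched on both strands for 5 motifs: the E-box CACGTG, the D-box TTATGNAA, the nuclear receptor element AGGTCA, the cyclic AMP element TGACGTCA and the AP-1 element TGANTCA. An E-box was present in 5 of the 14 windows, those of PER1, NR1D2, TEF and BHLHE40 (7.26% of all 35116 windows held one). A D-box was in 3 of the 14, for PER1, PER3 and NR1D2 (3.3% of all windows), and AGGTCA in 3, for PER1 and CRY2 (13.8%). The cyclic AMP element (1.85% of all windows) and the AP-1 element (7.71%) were found in none of the 14. No match overlapped another. Windows with both an E-box and a D-box, a count made after the matches were seen, made up 0.145% of all windows and included those of PER1 and NR1D2. A match describes letters in a window and is not a measured binding site. The stretches of PER3, on which the list was chosen, and of the members with an E-box are printed with the E-box or D-box in capitals, read 5′ to 3′ on the strand of the gene in GRCh37. They lie before a start and in no annotated exon.
PER3 (chr1:7844148-7844207, plus strand, D-box): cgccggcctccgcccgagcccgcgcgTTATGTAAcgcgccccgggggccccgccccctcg
PER1 (chr17:8055864-8055921, minus strand, E-box): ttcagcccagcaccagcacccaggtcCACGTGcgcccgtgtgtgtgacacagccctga
NR1D2 (chr3:23987392-23987538, plus strand, D-box and 2 E-boxes): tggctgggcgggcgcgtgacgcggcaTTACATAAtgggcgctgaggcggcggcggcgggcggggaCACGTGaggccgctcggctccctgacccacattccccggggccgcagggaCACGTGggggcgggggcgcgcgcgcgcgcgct
TEF, upstream start (chr22:41763238-41763295, plus strand, E-box): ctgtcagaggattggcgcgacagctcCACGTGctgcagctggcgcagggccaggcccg
TEF, downstream start (chr22:41777727-41777784, plus strand, E-box): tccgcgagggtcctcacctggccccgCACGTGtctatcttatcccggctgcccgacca
BHLHE40 (chr3:5020872-5020908, plus strand, E-box): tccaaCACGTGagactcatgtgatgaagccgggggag
The D-box of NR1D2 is on the other strand, so it reads TTACATAA here. The NR1D2 stretch comes from the window of its downstream start, and the window of its upstream start (chr3:23986527-23986826) held no match. The stretches of PER1 and NR1D2 thus lie before a start but inside the span of the gene given below. The D-box of PER1, TTATGCAA at chr17:8055745-8055752, lies in an annotated PER1 exon and is given without its surroundings.

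The members lie apart from each other in the genome (GRCh37), PER1 and NR1D1 being on chromosome 17 and NR1D2 and BHLHE40 on chromosome 3. On the plus strand are CRY2 (chr11:45868669-45904799), NR1D2 (chr3:23986777-24022108), TEF (chr22:41763337-41795330) and BHLHE40 (chr3:5021122-5027008). On the minus strand are PER1 (chr17:8043790-8059824), PER2 (chr2:239152685-239198743), CRY1 (chr12:107385142-107487327) and DBP (chr19:49133287-49140636), and PER3 and NR1D1 are placed where their values are given.

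The order of the clock genes in vehicle-treated cells came first, as levels per kb of exon after scaling over all 15 libraries. The length is that of all annotated exons of a gene merged, 6.485 kb for DBP. The order between genes depends on this length, which can exceed that of the transcripts present. In MG-63, NR1D2 led with 22.9 ± 0.262 CPM per kb (SD, n = 2), followed by CRY1 at 7.98, BHLHE40 at 6.28, NR1D1 at 4.72 and PER2 at 2.64. PER3 at 1.72 ± 0.193 and TEF at 1.53 ± 0.253 overlapped, CRY2 stood at 1.02, and PER1 (0.399) and DBP (0.386) overlapped at the bottom. In Saos2, NR1D2 at 13.7 ± 1.15 (SD, n = 3) overlapped both BHLHE40 at 13.6 ± 0.135 and PER3 at 12.9 ± 0.531. CRY1 (7.12), PER2 (3.26), PER1 (2.48), CRY2 (1.78), NR1D1 (1.58), TEF (1.15) and DBP (0.407) followed in that order, and none of these neighbors overlapped. PER3 thus ranked near the top in Saos2 and in the lower part of the list in MG-63.

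**Figure D1:**
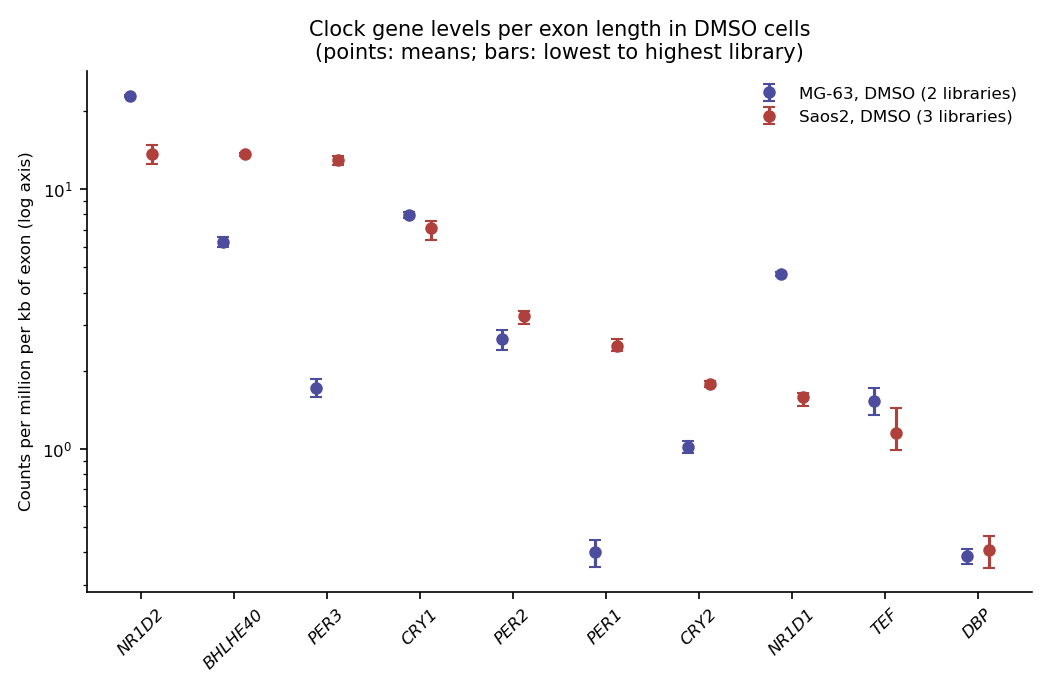
Levels of the 10 clock genes in DMSO-treated MG-63 (2 libraries) and Saos2 (3 libraries) cells, in CPM (counts-per-million) per kb of exon on a log axis; points are means and bars span the lowest to the highest library. PER3 was at 1.72 in MG-63 and 12.9 in Saos2, while NR1D1 was at 4.72 and 1.58. The order between genes depends on the exon length used.

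Of the 9 other members, 5 differed between the lines under DMSO at an edgeR adjusted p of at most 0.05 and a log2 difference of at least 0.5 (called, here and below), in a comparison where 67.7% of all genes were called. PER1 was 6.23-fold higher in Saos2 (log2 2.64, SE 0.20, edgeR adjusted p = 1.96e-11), BHLHE40 2.17-fold higher and CRY2 1.76-fold higher. NR1D1 was lower in Saos2 at 0.335 of its MG-63 level (log2 -1.58, SE 0.17) and NR1D2 at 0.598 (log2 -0.74, SE 0.08). PER3 was 7.51-fold higher in Saos2 (log2 2.91, SE 0.11). The line and the annotation behind its count table cannot be told apart in these differences. Scaling by total counts in place of TMM (the trimmed mean of M-values) moved the median gene by 0.477 on the log2 scale toward Saos2 and the share of higher calls over all genes from 53.7% to 68.0%. It took NR1D2 to -0.27, ending its call, took PER2 from 0.31 to a called 0.78, and turned the sign of CRY1 (-0.16 to 0.31) and TEF (-0.42 to 0.06).

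**Figure D2:**
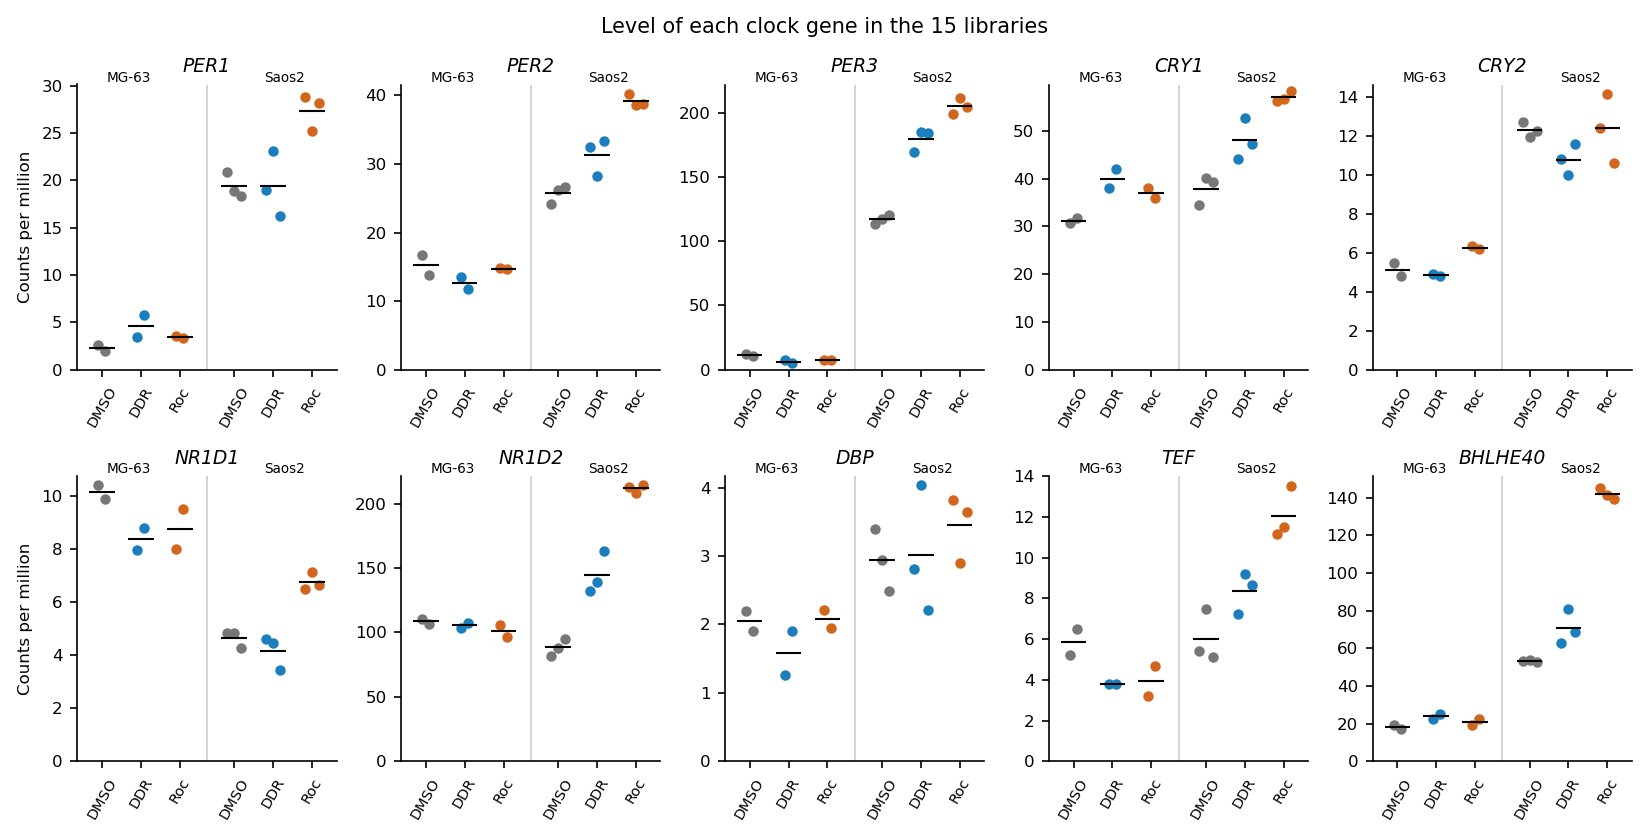
Level of each clock gene in each of the 15 libraries, in CPM scaled within each line, on linear axes that start at 0; each point is a library and each bar the group mean. In Saos2 the 3 Roc libraries lay above the 3 DMSO libraries for PER1, PER2, PER3, CRY1, NR1D1, NR1D2, TEF and BHLHE40. In MG-63, PER3, NR1D1 and TEF lay below DMSO with both compounds, and PER1, CRY1 and BHLHE40 lay above it with both. The share of all genes that separate in this way was not counted, so the separation is a description.

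The comparisons with DMSO asked which clock transcripts moved with each rocaglate. Roc in Saos2 moved the most: 6 of the 9 members were called, all higher (PER2, CRY1, NR1D1, NR1D2, TEF and BHLHE40), where 23.8% of all genes tested were called, and the median log2 fold change of the 9 was 0.59 against -0.02 over all genes. DDR in Saos2 had 1 member called, NR1D2, higher, where 14.3% of all genes were called, with a median of 0.28 against -0.01. A further 4 members with DDR (PER2, CRY1, TEF and BHLHE40) passed the adjusted p at a fold change under the minimum. In MG-63, DDR had 2 members called, PER1 higher and TEF lower, where 16.7% of all genes were called, with a median of -0.08 against -0.01. Roc in MG-63 had 0 of 9 called with edgeR, and 0 with DESeq2 or limma-voom, where 7.1% of all genes were called, and 3 members (PER1, CRY1 and TEF) had an unadjusted p under 0.05. In Saos2 with Roc, 4 of the 9 were called when libraries were scaled by total counts, and the share of called genes that were higher went from 56.5% to 44.4% over all genes.

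**Figure D3:**
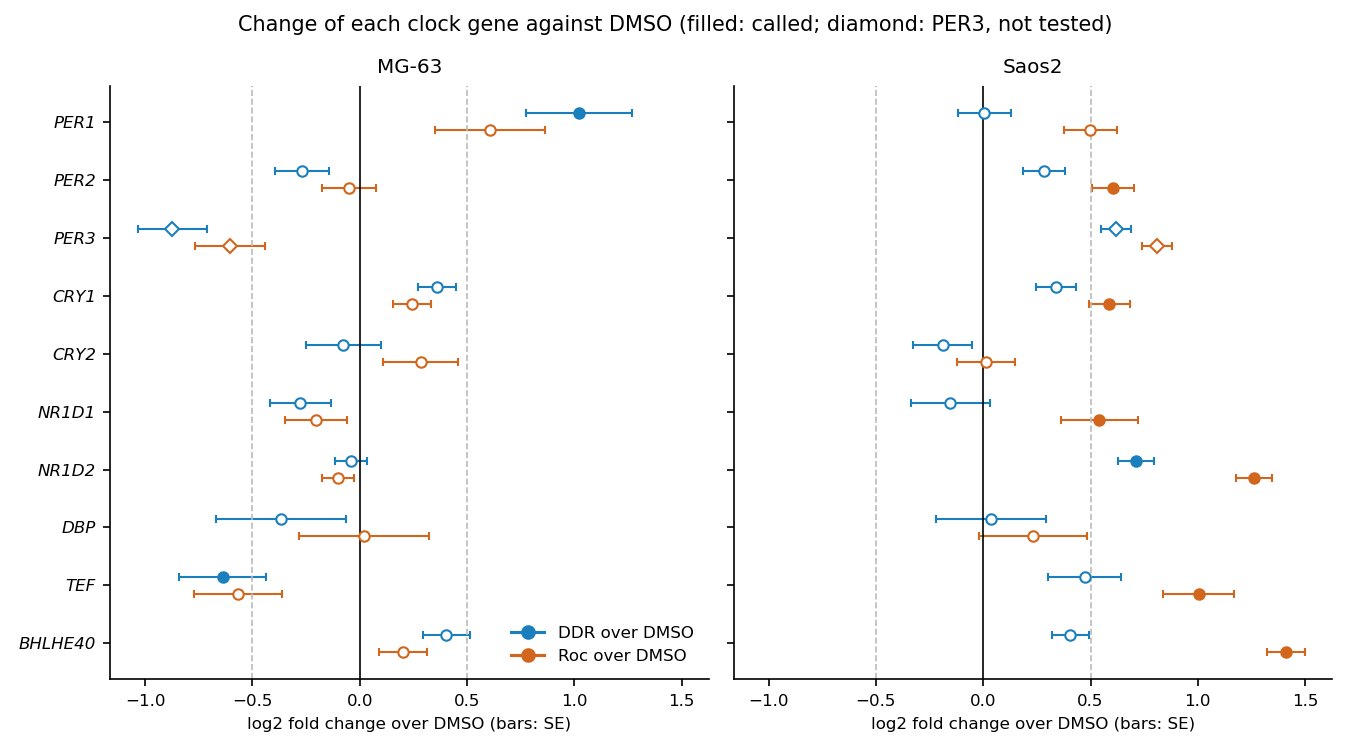
Log2 fold change over DMSO of each clock gene in MG-63 (left) and Saos2 (right) for DDR and Roc; bars are SEs, filled points were called, dashed lines mark the fold minimum of 0.5, and PER3 (diamonds) was not tested. Roc in Saos2 ranged from 0.01 for CRY2 to 1.41 for BHLHE40.

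The PER genes encode the repressors that pair with CRY proteins. PER3 measured 12.5 and 10.5 CPM in the MG-63 DMSO libraries, 7.25 and 5.23 with DDR, and 7.28 and 7.73 with Roc, so every treated library lay below both controls. The fitted levels were 0.546 of DMSO with DDR (log2 -0.87, SE 0.16) and 0.657 with Roc (log2 -0.61, SE 0.16). In Saos2, PER3 measured 113, 117 and 121 CPM with DMSO, 169.6, 185 and 184 with DDR, and 199, 212 and 204 with Roc. Here every treated library lay above all controls, at 1.54-fold with DDR (log2 0.62, SE 0.07) and 1.75-fold with Roc (log2 0.81, SE 0.07). These 4 values chose the list and are given as a description. PER3 lies at chr1:7844351-7905237 on the plus strand. Antisense UTS2 shares 10.7% of its exon bases and stayed at or below 0.0768 CPM in all libraries. An antisense long noncoding RNA without a gene symbol shares 5.93%, and its level was not examined.

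PER2 did not pass the test in MG-63, where the DMSO libraries had 16.7 and 13.9 CPM, the DDR libraries 13.6 and 11.8, and the Roc libraries 14.8 and 14.6. In Saos2 it stepped up between groups that did not overlap, from 24.2, 26.3 and 26.7 CPM with DMSO to 32.5, 28.2 and 33.3 with DDR and 40.2, 38.6 and 38.7 with Roc. The rise with Roc was 1.52-fold (log2 0.60, SE 0.10, edgeR adjusted p = 3.74e-05), and with DDR the log2 value was 0.28 (SE 0.10, edgeR adjusted p = 0.0365), under the fold minimum.

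PER1, an immediate-early responder among clock genes, was low in MG-63, at 2.58 and 1.99 CPM with DMSO, 3.50 and 5.75 with DDR, and 3.60 and 3.36 with Roc. DDR raised it 2.03-fold (log2 1.02, SE 0.25, edgeR adjusted p = 0.0023). That call rested on the second DDR library: without it the value was 0.61 with an edgeR adjusted p of 0.12, at the upper end of 8.73e-05 to 0.12 over the 6 fits that each left out a library. With Roc it was 0.61 (SE 0.26, edgeR adjusted p = 0.106). In Saos2 the DDR libraries (19.0, 23.1 and 16.2 CPM) straddled DMSO (20.9, 18.9 and 18.4), at a log2 of 0.01 with a 95% interval of -0.25 to 0.27, of which the sign turned under several alternatives. The Roc libraries (28.8, 25.2 and 28.1 CPM) all lay above DMSO, at log2 0.50 (SE 0.12, edgeR adjusted p = 0.00267), just under the fold minimum (0.4985 unrounded). Leaving out DMSO replicate 1, DDR replicate 1 or 3 or Roc replicate 2 took it past the minimum, to 0.50 to 0.52.

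The CRY genes encode the light-independent repressors of CLOCK and BMAL1. CRY1 measured 30.6 and 31.7 CPM in MG-63 with DMSO, 38.0 and 42.0 with DDR, and 38.1 and 35.9 with Roc, without overlap of treated and control libraries. The DDR value was log2 0.36 (SE 0.09, edgeR adjusted p = 0.00251), under the fold minimum. In Saos2 it went from 34.4, 40.1 and 39.2 CPM to 44.1, 52.7 and 47.1 with DDR and 56.2, 56.7 and 58.3 with Roc. The rise with Roc was log2 0.59 (SE 0.09, edgeR adjusted p = 2.64e-05), and it fell just under the minimum without DMSO replicate 1 (0.48) and with total-count scaling (0.4972). CRY2, its paralog, was called in none of the comparisons with a compound. It measured 5.46 and 4.83 CPM in MG-63 with DMSO, 4.94 and 4.81 with DDR and 6.34 and 6.19 with Roc, and in Saos2 12.7, 11.97 and 12.3 with DMSO, 10.8, 9.99 and 11.6 with DDR and 12.4, 14.2 and 10.6 with Roc. The 95% intervals in Saos2 ran from -0.47 to 0.09 for DDR and from -0.27 to 0.29 for Roc, the latter with a sign that turned under total counts.

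NR1D2, one of the REV-ERB genes, was called in Saos2 and not in MG-63. The MG-63 libraries stood at 110.2 and 107 CPM with DMSO, 104 and 107 with DDR, and 106 and 96.4 with Roc, with 95% intervals of the log2 change of -0.19 to 0.11 (DDR) and -0.26 to 0.05 (Roc). In Saos2 it rose in 2 steps, from 82.1, 87.9 and 95.1 CPM with DMSO to 132, 139 and 163 with DDR and 213, 209 and 215 with Roc. The folds were 1.64 with DDR (log2 0.71, SE 0.08, edgeR adjusted p = 1.23e-06) and 2.40 with Roc (log2 1.26, SE 0.08, edgeR adjusted p = 1.01e-10).

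NR1D1 lay at a lower level. In MG-63 it measured 10.4 and 9.87 CPM with DMSO, 7.95 and 8.78 with DDR and 8.01 and 9.48 with Roc, and neither change was called. In Saos2 the values were 4.84, 4.81 and 4.26 with DMSO, 4.61, 4.45 and 3.44 with DDR, and 6.47, 7.12 and 6.63 with Roc. The Roc libraries stood apart from both other groups, at 1.46-fold over DMSO (log2 0.54, SE 0.18, edgeR adjusted p = 0.0207). This call was lost with total-count scaling (0.45), without the count filter (0.52), and in each of the 6 fits that left out a DMSO or Roc library (0.46 to 0.54), with edgeR adjusted p from 0.016 to 0.0994 over all 9 fits with a library left out. NR1D1 shares 18% of its exon bases with THRA (thyroid hormone receptor alpha) on the opposite strand (NR1D1 at chr17:38249046-38256842). Reads within the shared bases are told apart only if the counting used strand, which the sources do not say. THRA rose as well with Roc in Saos2, from 23.4, 24.8 and 28.4 CPM to 35.9, 35.9 and 37.9 (log2 0.52, SE 0.11). Its part in the NR1D1 value was not tested.

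Of the PAR bZIP factors, TEF fell with DDR in MG-63 and rose with Roc in Saos2. In MG-63 it measured 5.24 and 6.52 CPM with DMSO, 3.78 and 3.79 with DDR, and 3.19 and 4.67 with Roc, every treated library below both controls. DDR lowered it to 0.643 of DMSO (log2 -0.64, SE 0.20, edgeR adjusted p = 0.0166), and with Roc the value was -0.57 (SE 0.21, edgeR adjusted p = 0.0583). These calls were near the threshold: the DDR call was lost without DMSO replicate 2 (-0.46), DDR replicate 1 (-0.64) or DDR replicate 2 (-0.65), with edgeR adjusted p from 0.00779 to 0.214 over 6 fits, and Roc was called at -0.58 without either DDR library and at -0.88 without Roc replicate 2. In Saos2, TEF went from 5.42, 7.48 and 5.13 CPM with DMSO to 7.24, 9.20 and 8.64 with DDR and 11.2, 11.5 and 13.5 with Roc. Roc raised it 2.01-fold (log2 1.00, SE 0.17, edgeR adjusted p = 4.44e-05), and the DDR libraries overlapped DMSO at log2 0.47 (SE 0.17, edgeR adjusted p = 0.0405), under the fold minimum. Without DMSO replicate 2 (0.65) or DDR replicate 1 (0.57) the DDR value was called.

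DBP was the scarcest member, with 1.90 to 2.19 CPM in MG-63 and 2.49 to 3.39 CPM in Saos2 under DMSO. Its treated libraries ranged from 1.26 to 2.21 CPM in MG-63 and from 2.21 to 4.03 CPM in Saos2 and overlapped DMSO in all 4 comparisons. Its 95% intervals were the widest of the list, -0.99 to 0.26 for DDR in MG-63 and -0.29 to 0.76 for Roc in Saos2. Changes of any size inside these intervals remain compatible with the data. SPHK2 on the opposite strand shares 10.2% of its exon bases and stood at 4.17 to 6.34 CPM in MG-63 and 7.76 to 17.7 CPM in Saos2. Its part in the DBP counts was not tested.

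BHLHE40 had the largest change over DMSO of the 10 genes, with Roc in Saos2. In MG-63 it measured 19.0 and 17.1 CPM with DMSO, 22.6 and 25.1 with DDR, and 19.2 and 22.2 with Roc, with a DDR value of log2 0.40 (SE 0.11, edgeR adjusted p = 0.0057) under the fold minimum. In Saos2 the DMSO libraries lay close together at 53.5, 53.8 and 52.9 CPM, DDR gave 62.7, 81.1 and 68.7, and Roc gave 145, 141 and 139. The Roc libraries were far above both other groups, 2.66-fold over DMSO (log2 1.41, SE 0.09, edgeR adjusted p = 3.65e-11), and DDR was at log2 0.41 (SE 0.09, edgeR adjusted p = 0.00112), under the minimum. The antisense transcript BHLHE40-AS1 shares 12.8% of its exon bases and stayed at or below 1.14 CPM.

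Whether a response differed between the lines was tested directly, in 1 fit of the 15 libraries. For DDR, 4 of the 9 members were called, where 13.3% of all genes were called: TEF (Saos2 minus MG-63 log2 1.14, SE 0.29, edgeR adjusted p = 0.00752), NR1D2 (0.79, SE 0.12, edgeR adjusted p = 1.12e-04) and PER2 (0.59, SE 0.16, edgeR adjusted p = 0.0145) were higher in Saos2, and PER1 was lower (-0.98, SE 0.27, edgeR adjusted p = 0.0133). For Roc, 5 of the 9 were called, all higher in Saos2, where 13% of all genes were called: TEF (1.62, SE 0.29, edgeR adjusted p = 3.1e-04), NR1D2 (1.41, SE 0.12, edgeR adjusted p = 2.29e-08), BHLHE40 (1.25, SE 0.15, edgeR adjusted p = 1.53e-06), NR1D1 (0.79, SE 0.24, edgeR adjusted p = 0.0247) and PER2 (0.70, SE 0.16, edgeR adjusted p = 0.00374). PER3, on which the list was chosen, differed by 1.53 (SE 0.15) for DDR and 1.46 (SE 0.15) for Roc. CRY1 (0.01, 95% interval -0.28 to 0.30) and BHLHE40 (0.04, 95% interval -0.26 to 0.34) were not called for DDR. CRY2 and DBP were called for neither compound.

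**Figure D4:**
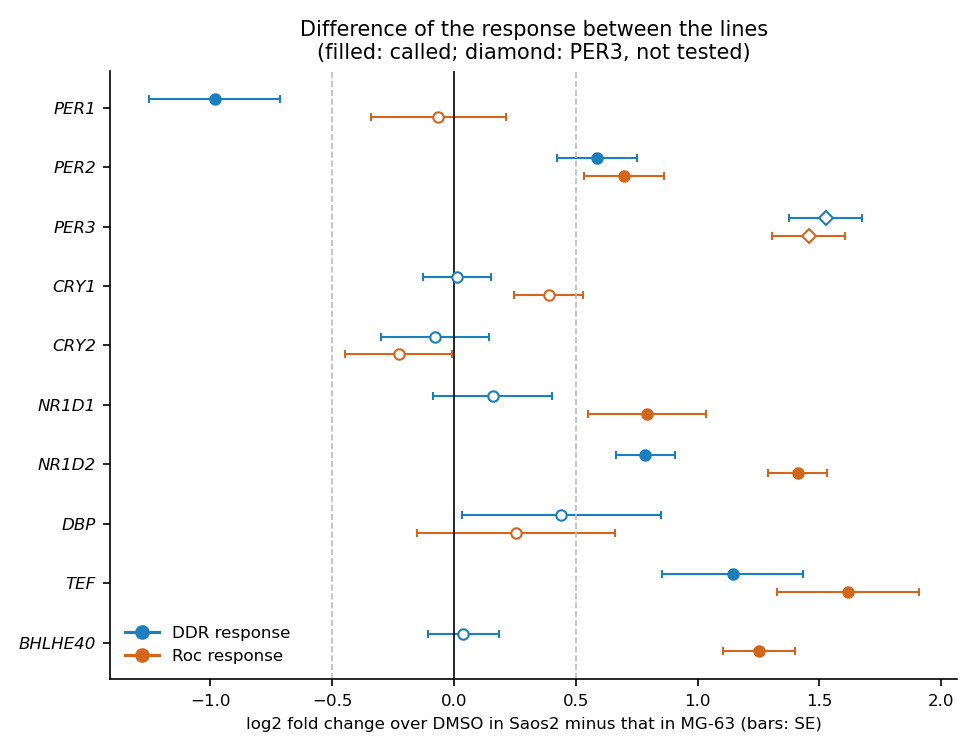
Log2 fold change over DMSO in Saos2 minus that in MG-63 for each clock gene, for DDR and Roc; bars are SEs, filled points were called, dashed lines mark a difference of 0.5, and PER3 (diamonds) was not tested. TEF and NR1D2 lay to the right for both compounds (1.14 and 0.79 for DDR, 1.62 and 1.41 for Roc), and PER1 lay to the left for DDR (-0.98).

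Several of these differences rested on single MG-63 libraries. The PER1 difference for DDR was lost without MG-63 DMSO replicate 2 (-0.82) or MG-63 DDR replicate 2 (-0.57), and with limma-voom (-0.96, adjusted p = 0.0644). The PER2 difference was lost for DDR without MG-63 DMSO replicate 1 (0.46) or MG-63 DDR replicate 2 (0.4984), and for Roc without MG-63 DMSO replicate 1 (0.57). TEF lost its DDR call without MG-63 DMSO replicate 2 (0.96). NR1D1 lost its Roc call without either MG-63 DMSO library (0.77 and 0.82), MG-63 Roc replicate 1 (0.66) or Saos2 Roc replicate 2 (0.75), without the count filter (0.79), and with total counts (0.68), a scaling that moved the median gene of this contrast by -0.117 and the share of higher calls over all genes from 64.4% to 45.7%. The calls of NR1D2 for both compounds and of TEF and BHLHE40 for Roc held in every fit run.

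Roc was also set against DDR within each line, at unequal concentrations. In MG-63, 0 of the 9 members were called with edgeR, DESeq2 or limma-voom, 0 had an unadjusted p under 0.05, and 1.2% of all genes were called. The widest 95% interval, for DBP, ran from -0.25 to 1.03 and the narrowest, for NR1D2, from -0.22 to 0.09. In Saos2, 4 of the 9 were called, all higher with Roc, where 3.76% of all genes were called. The share of higher calls over all genes went from 65.4% to 50.5% with total counts in Saos2 and from 53.8% to 66.3% in MG-63. BHLHE40 was 2.01-fold higher at 40 nM Roc than at 7 nM DDR (log2 1.00, SE 0.09, edgeR adjusted p = 2.09e-07), NR1D1 1.62-fold (log2 0.70, SE 0.18, edgeR adjusted p = 0.0173), NR1D2 1.46-fold (log2 0.55, SE 0.08, edgeR adjusted p = 1.72e-04) and TEF 1.45-fold (log2 0.53, SE 0.16, edgeR adjusted p = 0.0422). BHLHE40 was called in every fit. NR1D2 fell to 0.49 without DDR replicate 1. NR1D1 was lost without DDR replicate 3 or any 1 Roc library (0.58 to 0.70), and TEF without DMSO replicate 1, DDR replicate 1 or 3, or any 1 Roc library (0.42 to 0.56), and with total counts (0.49). PER1 (0.49) was called without DDR replicate 2 (0.61) or Roc replicate 2 (0.52), with limma-voom (0.51), which called 5 of the 9 members, and with a replicate block (0.5005). For PER3 the Roc level was 1.14-fold that of DDR in Saos2 (log2 0.19, SE 0.07) and 1.20-fold in MG-63 (log2 0.27, SE 0.17).

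The rest of the clock was followed through 21 other components and 7 genes known as clock outputs. Of the components, 17 passed the count filter in MG-63 and 19 in Saos2. With DDR in MG-63 4 were higher, 2 lower and 11 not called, and with Roc 1 was higher, 1 lower and 15 not called. In Saos2 7 were higher and 12 not called with DDR, and 11 were higher and 8 not called with Roc. The components called thus made up 35.3% (DDR) and 11.8% (Roc) of those tested in MG-63, against 16.7% and 7.1% of all genes, and 36.8% (DDR) and 57.9% (Roc) in Saos2, against 14.3% and 23.8% of all genes. The 57.9% includes CIART, which passed the count filter through treated libraries only. None of the components was called lower in Saos2. Under the fold minimum but past the adjusted p, TIMELESS fell there with DDR (log2 -0.29, edgeR adjusted p = 0.00412) and Roc (-0.43, edgeR adjusted p = 5.15e-05). FBXW11 rose there with Roc (0.35, edgeR adjusted p = 0.00287), and TIPIN fell with Roc in MG-63 (-0.38, edgeR adjusted p = 0.0263). The medians in Saos2 were log2 0.42 with DDR and 0.66 with Roc, against -0.01 and -0.02 over all genes.

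NFIL3, the repressor that shares the D-box with DBP and TEF, was called in all 4 comparisons. In MG-63 it went from 17.7 and 18.4 CPM to 41.4 and 39.9 with DDR (log2 1.17, SE 0.09) and to 35.2 and 32.1 with Roc (0.89, SE 0.09). In Saos2 it went from 18.2, 22.6 and 22.5 CPM to 36.9, 43.9 and 37.4 with DDR (0.90, SE 0.10) and to 57.4, 56.5 and 58.3 with Roc (1.44, SE 0.11). No treated library overlapped DMSO. HLF, the third PAR bZIP factor, fell in MG-63 and rose with Roc in Saos2. In MG-63 the DMSO libraries had 6.34 and 7.04 CPM, against 3.93 and 3.50 for DDR (log2 -0.85, SE 0.18, edgeR adjusted p = 7.97e-04) and 4.66 and 4.08 for Roc (log2 -0.62, SE 0.18, edgeR adjusted p = 0.0203). In Saos2 the DMSO libraries had 4.52, 5.14 and 5.35 CPM and the Roc libraries 9.64, 9.45 and 10.9 (log2 1.00, SE 0.21, edgeR adjusted p = 5.16e-04). Its DDR libraries in Saos2 (3.75, 7.55 and 7.51 CPM) overlapped DMSO. Its Roc response differed between the lines by 1.66 (SE 0.32, edgeR adjusted p = 5.69e-04) and its DDR response by 1.20 (SE 0.32, edgeR adjusted p = 0.0104). The Roc call in MG-63 was lost without either DMSO library (-0.69 and -0.53) or Roc replicate 2 (-0.52), and the DDR difference without MG-63 DMSO replicate 2 (1.10) or DDR replicate 2 (1.13).

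On the activating arm, CLOCK rose in Saos2 with DDR (log2 0.55, SE 0.08) and Roc (0.66, SE 0.08) from 115, 121 and 125 CPM to 174, 158 and 197 and to 191, 184 and 194, the DDR call being lost without DMSO replicate 1 (0.4994) or DDR replicate 3 (0.47). Its partner ARNTL (BMAL1) was called in none of the 4 comparisons, with log2 values from -0.15 to 0.24, and NPAS2, a CLOCK paralog, in none either, with values from 0.08 to 0.49. ARNTL2 fell with DDR in MG-63 (log2 -0.69, SE 0.12), from 65.7 and 59.3 CPM to 39.6 and 37.6. Past the adjusted p but under the fold minimum in MG-63 were CLOCK with DDR (0.25, edgeR adjusted p = 0.0106) and ARNTL2 with Roc (-0.35, edgeR adjusted p = 0.0413). The activating receptor gene RORA, at 7.00 to 8.61 CPM in Saos2 with DMSO, rose with DDR (log2 0.68, SE 0.13) and Roc (0.92, SE 0.13), and so did RORB (0.87, SE 0.10, and 1.12, SE 0.10), which had at most 0.154 CPM in MG-63. BHLHE41 (DEC2), the paralog of BHLHE40, rose in Saos2 by 0.62 (SE 0.08) with DDR and 0.68 (SE 0.08) with Roc from 67.1, 73.2 and 74.9 CPM, and stayed at or below 0.849 CPM in MG-63. The repressor gene CIART was near the floor in Saos2, at 0.224 to 0.277 CPM with DMSO and 0.691 to 1.19 CPM with Roc. No DMSO library reached the minimum of the count filter, which CIART passed through treated libraries only. Its Roc call is therefore a description, and it was lost without Roc replicate 3 (1.54).

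Among enzymes that modify clock proteins, CSNK1D, the kinase that marks PER proteins, rose with DDR in MG-63 (log2 0.64, SE 0.08) and with Roc in Saos2 (0.54, SE 0.09). The kinase gene GSK3B rose in Saos2 by 0.67 (SE 0.08) and 0.92 (SE 0.08), and SIRT1, a deacetylase that acts on PER2 and BMAL1, rose with DDR in MG-63 (0.50, SE 0.08) and Roc in Saos2 (0.74, SE 0.10). Other values passed the adjusted p under the fold minimum. In MG-63 these were CSNK1D with Roc (0.45, edgeR adjusted p = 1.88e-04), GSK3B with DDR (0.47, edgeR adjusted p = 2.68e-05) and Roc (0.30, edgeR adjusted p = 0.00638), and SIRT1 with Roc (0.24, edgeR adjusted p = 0.0266). In Saos2 it was SIRT1 with DDR (0.42, edgeR adjusted p = 0.00218). The MG-63 call of SIRT1 with DDR was lost with total counts (0.46) and without DMSO replicate 1 (0.42), DDR replicate 2 (0.47) or Roc replicate 1 (0.49). The CSNK1D call in Saos2 was lost with total counts (0.44) and without DMSO replicate 3 (0.46) or Roc replicate 2 (0.4988).

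Of the 7 clock outputs, 1 was called higher for each compound in MG-63, and in Saos2 DDR had 2 and Roc had 4 called higher, with none called lower anywhere. In MG-63 that was 14.3% of the outputs for each compound, against 16.7% (DDR) and 7.1% (Roc) of all genes, so that 1 gene is near the background share. In Saos2 it was 28.6% for DDR and 57.1% for Roc, against 14.3% and 23.8% of all genes. The 1 called everywhere was TSC22D3, a glucocorticoid-induced gene with clock-dependent expression, at log2 1.63 (SE 0.34) and 1.28 (SE 0.35) in MG-63 and 1.06 (SE 0.15) and 1.89 (SE 0.15) in Saos2 for DDR and Roc. Its counts in MG-63 were low, from 0.85 and 1.10 CPM with DMSO to 2.16 and 3.92 with DDR and 3.11 and 1.75 with Roc, and the Roc call there was lost without DMSO replicate 1 (1.12) or Roc replicate 1 (0.82). NAMPT, an E-box-driven enzyme of NAD synthesis, rose in Saos2 by 0.60 (SE 0.09) with DDR and 0.85 (SE 0.09) with Roc, the DDR call being lost without DMSO replicate 1 (0.49) or DDR replicate 3 (0.49). Under the fold minimum but past the adjusted p, USP2 fell in Saos2 with DDR (-0.43, edgeR adjusted p = 0.0399) and Roc (-0.49, edgeR adjusted p = 0.0131). WEE1 fell likewise with DDR in MG-63 (-0.20, edgeR adjusted p = 0.0348). KLF11 rose with DDR in MG-63 (0.45, edgeR adjusted p = 0.00324) and KLF10 with Roc in Saos2 (0.27, edgeR adjusted p = 0.0336).

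**Figure D5:**
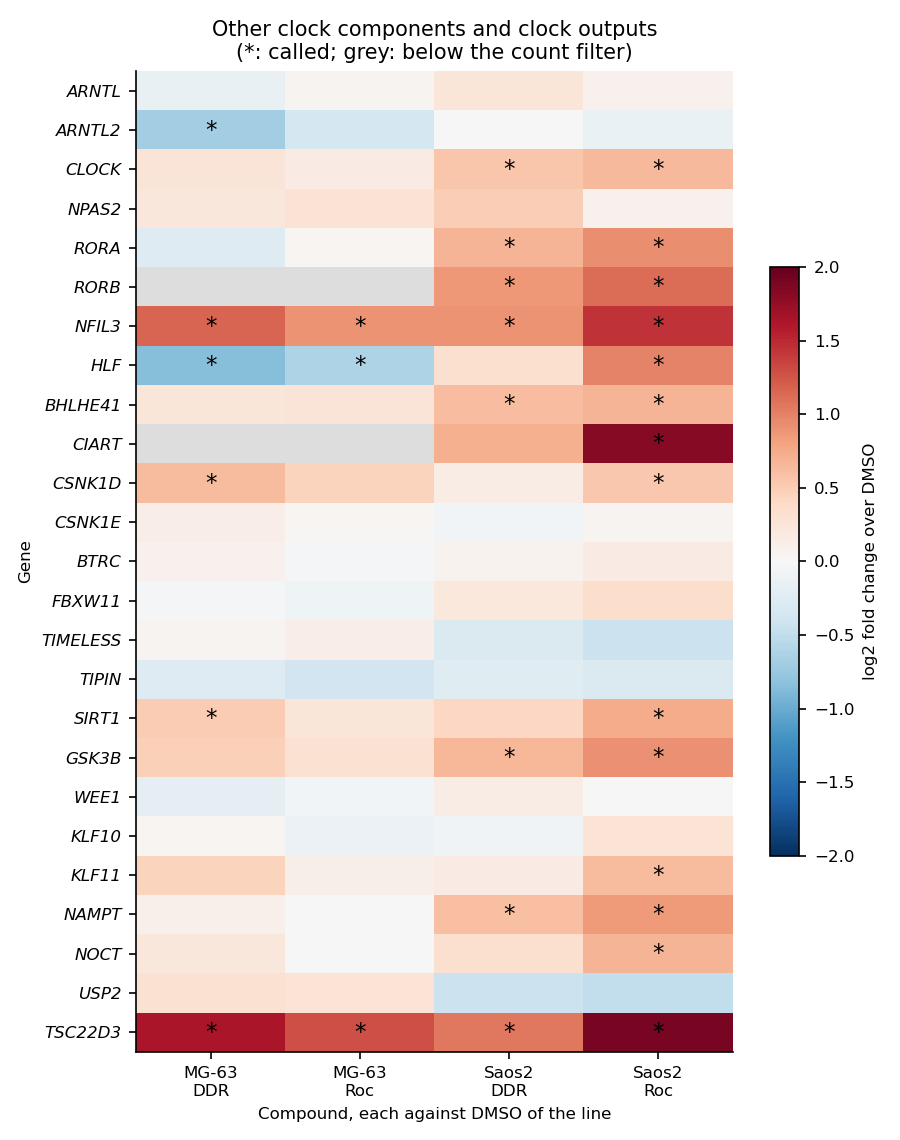
Log2 fold change over DMSO of other clock components and clock outputs that passed the filter in Saos2, in the 4 comparisons, as color from -2 (blue) to 2 (red); asterisks mark called genes and grey cells genes below the count filter. NFIL3 and TSC22D3 were called in all 4, and HLF was blue in MG-63 (-0.85 and -0.62) and red in Saos2 with Roc (1.00).

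The genes with a pattern most like that of PER3 were sought by Pearson correlation over the 15 libraries, on log2 CPM minus the mean of the DMSO libraries of the line. The libraries share their controls, and the ranking is a description. Of 12029 protein-coding candidates, the first 5 were SSX2IP (r = 0.979), C16orf52 (0.978), HACE1 (0.978), CHUK (0.977) and KRCC1 (0.976). KRCC1 had the widest swing of these, with mean log2 CPM differences from DMSO in MG-63 of -0.99 (DDR) and -0.64 (Roc) and in Saos2 of 0.74 (DDR) and 1.16 (Roc). Within the list, TEF (r = 0.917, rank 170), PER2 (0.905, rank 235) and NR1D2 (0.847, rank 632) came closest, and CRY2 (-0.343) and PER1 (-0.492) were at the other end.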

How the data were processed

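Messenger RNA from MG-63 and Saos2 cells was sequenced as 100-base paired reads from TruSeq stranded libraries. Each value used is a raw gene count deposited by the authors, who discarded mitochondrial, ribosomal and transfer RNA reads with Bowtie2 2.5.1, mapped the others to GRCh37 with STAR 2.7.3a and counted with HTSeq 0.11.2. Whether HTSeq used strand, and which annotation it used, is not stated in the sources read. The count tables hold 57773 gene IDs for MG-63 and 58051 for Saos2, with 52684 in common. Another 55 per-sample columns (normalized values and copies) and the columns of the authors' own comparisons (fold changes and p-values) were not used.

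Low genes were dropped with filterByExpr and library sizes corrected by TMM. A model of all 3 groups was fitted in each line, and the quasi-likelihood F test of edgeR 4.0.16 in R 4.3.3 gave p-values, adjusted by Benjamini-Hochberg over 15303 genes (MG-63) or 17593 (Saos2). Differences between the lines came from 1 fit of 15 libraries in 6 groups over 18842 genes. A gene was called at the thresholds of the study, adjusted p up to 0.05 and an absolute log2 value from 0.5. CPM values carry the TMM correction, within a line unless stated. Exon lengths and overlaps come from GENCODE v44 lifted to GRCh37. Alternatives were DESeq2 1.42.0, limma-voom (limma 3.58.1), DESeq2 size factors, total counts, no filter, no fold minimum, the compared groups alone, a replicate block, and each library left out. For genes other than the 10 members these were added after seeing the data. The procedure was tested on simulated data.

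The members, gene lists and tests were chosen with earlier results of these data known. Named were the 10 members, the partners ARNTL, ARNTL2, CLOCK, NPAS2, RORA, NFIL3, BHLHE41 and CIART, other listed genes called in at least 2 of the 4 comparisons with DMSO, the 5 genes most like PER3 at a mean of at least 1 CPM, and overlapping genes that carry a gene symbol. TIMELESS, TIPIN, FBXW11, USP2, WEE1, KLF10 and KLF11 were added after their values were seen, for values past the adjusted p under the fold minimum. A listed gene that counts toward the list totals is not reported here by name. The labels call the libraries biological replicates, save 1 MG-63 Roc library called a replicate only. Where they do not come from separate cultures, p-values measure technical spread. PECAM1, a listed endothelial marker, was not analysed here.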

Additional observations from a re-analysis of the deposited data

Results flagged for a closer look

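The responses of 6 clock genes differed between the lines in the fit of all 15 libraries, where 13.3% of all genes were called for DDR and 13% for Roc. For DDR, the log2 fold change in Saos2 minus that in MG-63 was 1.144 for TEF, 0.785 for NR1D2, 0.5864 for PER2 and -0.9822 for PER1, and each passed the edgeR test of the difference itself. For Roc it was 1.616 for TEF, 1.411 for NR1D2, 1.252 for BHLHE40, 0.7939 for NR1D1 and 0.6989 for PER2, again each past the edgeR test. Not all of these calls were stable. That of PER1 for DDR was lost with limma-voom and without MG-63 DMSO replicate 2 (-0.82) or MG-63 DDR replicate 2 (-0.57), and that of NR1D1 for Roc in 4 of the 15 fits with a library left out (values from 0.66 to 0.95 over the 15), with total counts and without the count filter. PER2 for both compounds and TEF for DDR each lost the call without 1 or 2 MG-63 libraries. PER3 differed by 1.526 for DDR and 1.456 for Roc, with every treated MG-63 library below and every treated Saos2 library above the controls of its line. The list was chosen on PER3, and its difference was not tested. Both compounds share the DMSO libraries of each line, so their differences are not independent of each other.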

How the results depend on the processing

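Leaving out each library in turn gave 0 to 2 members called for DDR and 0 to 1 for Roc in MG-63, 1 to 2 for DDR, 5 to 7 for Roc and 2 to 5 for Roc over DDR in Saos2, 2 to 4 for the DDR difference between lines and 3 to 5 for the Roc difference. With no fold minimum, 4 members were called for DDR in MG-63 and 5 for DDR in Saos2. For Roc in MG-63, 1 (TEF) was called without the count filter. The labels tie no number to a shared culture. Same-numbered libraries deviated together with r from -0.0116 to 0.0241 in MG-63 and from 0.00335 to 0.143 in Saos2, and different-numbered ones with r from -0.0241 to 0.0116 and from -0.111 to 0.0276. In MG-63, with 2 libraries a group, values of different numbers mirror those of the same number by construction and cannot tell pairs. In Saos2 all 9 same-numbered values were above 0 and most different-numbered ones below it. Deviations were taken from group means, so same-numbered values above 0 push the different-numbered ones below it, which is no separate evidence. Only 1 of the 9 was over 0.1, and not every library correlated best with its own number. Pairing in Saos2 was therefore left undecided. The main fits used no pairs, and a fit with a replicate block was run beside them. With a replicate block, 1 member (TEF, -0.58) was called for Roc in MG-63, 7 for Roc and 5 for Roc over DDR in Saos2, the added member being PER1 in both (0.5016 and 0.5005).

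Signs turned for these values, none of which had been called. PER1 with DDR in Saos2 was -0.039 with total counts, -0.0079 without the filter, -0.0067 with limma-voom and -0.0063 with only the compared groups. With total counts, DBP with DDR in Saos2 was -0.0078, CRY2 with Roc in Saos2 was -0.078, and the DMSO level of CRY1 was 0.31 and of TEF 0.065. CRY2 with Roc in Saos2 was -0.012 without the filter. The DDR difference of CRY1 was -0.0175 with DESeq2 size factors, -0.019 with total counts, -0.0080 without the filter and -0.0177 with DESeq2. With libraries left out, values spanned 0 from -0.16 to 0.015 (CRY2, DDR, MG-63), -0.18 to 0.089 (PER2, Roc, MG-63), -0.076 to 0.13 (DBP, Roc, MG-63), -0.064 to 0.18 (NR1D1), -0.14 to 0.00077 (NR1D2) and -0.25 to 0.30 (TEF) for Roc over DDR in MG-63, -0.14 to 0.12 (PER1, DDR, Saos2), -0.23 to 0.22 (DBP, DDR, Saos2), -0.14 to 0.082 (CRY2, Roc, Saos2), -0.073 to 0.097 (CRY1) and -0.070 to 0.13 (BHLHE40) for the DDR difference, -0.24 to 0.10 (PER1) for the Roc difference, and -0.025 to 0.17 (DBP) for the DMSO level. The causes were not tested. PER3 kept its direction throughout, from -1.13 to -0.67 for DDR and -0.72 to -0.48 for Roc in MG-63, and from 0.57 to 0.66 for DDR and 0.72 to 0.83 for Roc in Saos2.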
